A study of Mus musculus with 18 samples.

Results

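Cultured mouse aortic smooth muscle cells that had lost most of their integrin αV transcript and were then given TGF-β are described here against the same kind of cells with a scramble siRNA and no growth factor. The comparison sets 3 libraries labelled TGFβ+Si (Itgav siRNA, then TGF-β) against 3 labelled Control+NC (scramble siRNA, no stimulus), 6 of the 18 libraries of the study, over all 15832 genes that could be tested. Because 2 treatments separate these groups, each net change was also split into a TGF-β step in scramble cells (TGFβ+NC over Control+NC) and an siRNA step in the presence of TGF-β (TGFβ+Si over TGFβ+NC), and the genes whose steps cancelled were sought. Groups labelled Control+Si (Itgav siRNA, no stimulus), PDGF+Si and PDGF+NC (PDGF-BB with the Itgav or the scramble siRNA) gave further values, again from 3 libraries each. All cells came from the thoracic aorta of mice with the C57BL/6 background, and every group had been transfected with 1 of the 2 siRNAs. The scramble siRNA is a control without an intended target. The sources used here do not give the ages of the mice, the doses, the times, the siRNA sequences or whether replicates were separate cultures. The p-values therefore cover the spread from library to library, part of which may be technical.

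Integrin αV pairs with several β chains to form receptors for matrix proteins and for the latent form of TGF-β, and cells can use these receptors to free active TGF-β from its latent complex. Added TGF-β binds its own receptor kinases, which activate SMAD transcription factors, and in smooth muscle cells it is known for raising actin and other contractile genes, elastin and collagens, and for slowing division. Integrins also anchor the actin cytoskeleton at focal adhesions, from which signals reach SRF, the factor that drives contractile genes.

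Deposited counts of the 18 libraries totalled 17705072 to 21592916. In a principal component analysis of the 12 libraries without PDGF-BB, 48.4% of the variance fell on the first axis, which placed the TGFβ+Si libraries at 57.4 to 58.3, the TGFβ+NC libraries at 41.8 to 43.6, the Control+Si libraries at -60.4 to -59.9 and the Control+NC libraries at -41.2 to -39.5. The second, with 28.7%, placed both siRNA groups at or below -38.1 and both scramble groups at or above 36.4, so the 2 groups compared here differed along both. Markers of the labelled cell type were present: summed over 8 smooth muscle markers, expression was 3427 to 3597 CPM (counts per 1000000 counts of the library) in TGFβ+Si and 2366 to 2432 CPM in Control+NC libraries. Acta2 (0.95), Tagln (0.49) and Smtn (0.14) were higher, Myh11 (-1.53), Lmod1 (-1.19), Mylk (-1.12) and Myl9 (-0.61) lower in log2 fold change, and Cnn1 was not called. Control+NC replicate 1 stood apart in 1 respect, with the lowest value of its group for 37 of 40 interferon-stimulated genes. For some of the interferon-stimulated genes named, the net change is also given without that library. The ± after a log2 difference gives its standard error, and a gene was called at a Benjamini-Hochberg adjusted p under 0.05 in edgeR's quasi-likelihood test. Log2 fold changes are differences, and CPM values are levels that are not corrected for gene length.

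The net state differed from baseline in most of the measured transcriptome. Of the 15832 genes tested, 5001 (31.6%) were higher and 5198 (32.8%) lower in TGFβ+Si than in Control+NC cells, 64.4% in all, and 1733 (10.9%) and 1579 (9.97%) of them by at least 2-fold. The TGF-β step alone called 48.3% of the genes and the siRNA step under TGF-β 48.4%. With so many calls, the share of a gene group that passed the test is read below against these percentages, and beside the median net change of all genes, which was 0.004 on the log2 scale. At the other end, 6048 genes (38.2%) had a 95% interval of the net change that lay within 1.5-fold of baseline in both directions, most of them without 2 large steps behind it.

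**Figure D1:**
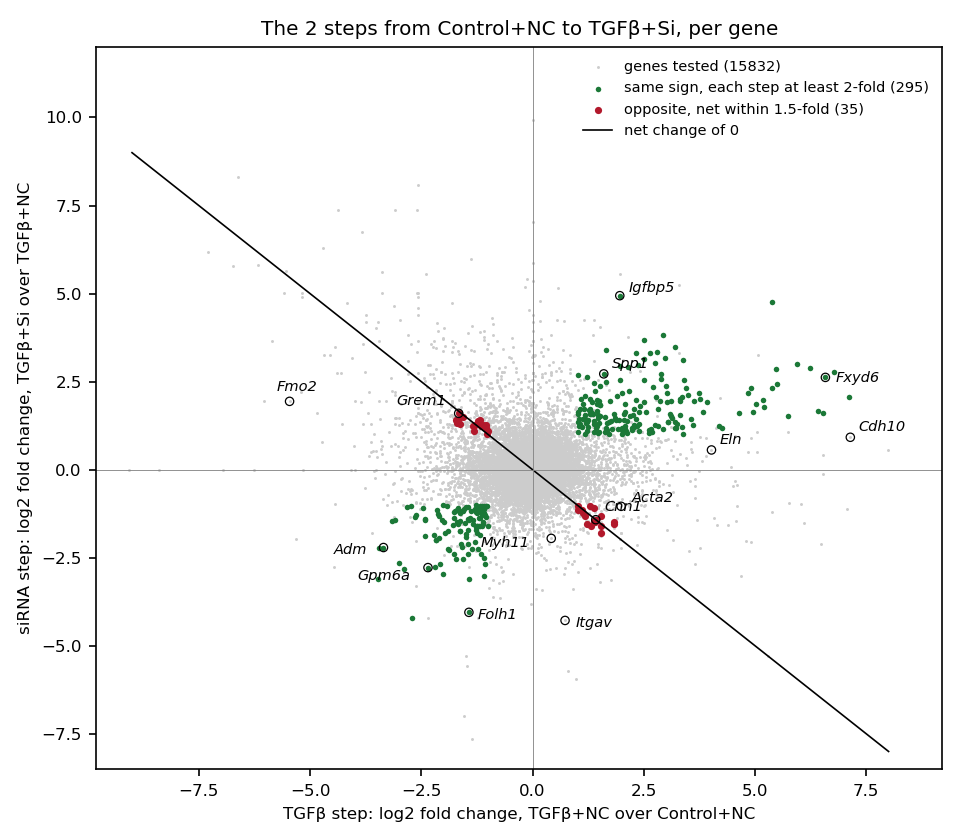
Log2 fold change of the TGF-β step in scramble cells (x axis) against that of the siRNA step under TGF-β (y axis) for the 15832 genes tested, 1 point per gene. Green points are the 295 genes with steps of the same sign of at least 2-fold each, red points the 35 genes with opposite steps of at least 2-fold whose net change stayed within 1.5-fold, ringed points are the labelled genes, and the line marks a net change of 0, on which Cnn1 and Grem1 lie. Both axes use the TGFβ+NC libraries, with opposite sign.

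As a check of the labels, Itgav was read first. The gene (ENSMUSG00000027087) lies on chromosome 2, 83724397 to 83806916 on the plus strand by the coordinates of GENCODE M21 (GRCm38, the mm10 build). It stood at 26.1, 29.7 and 25.3 CPM in the TGFβ+Si libraries, at 548, 553 and 471 CPM in TGFβ+NC, at 14.8, 14.1 and 16.4 CPM in Control+Si and at 300.2, 326 and 323 CPM in Control+NC. Each siRNA library lay far below each scramble library. The net change was -3.55 ± 0.084 on the log2 scale, 11.7-fold lower than baseline, the sum of an siRNA step of -4.28 ± 0.083 and a TGF-β step of 0.73 ± 0.072.

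In the net state 12 of 18 tested integrin genes rose and 4 fell (median 1.39), and the higher ones included the 4 tested β chains known to pair with αV (Itgb6 did not pass the low-count filter). Itgb3, whose product forms a receptor for vitronectin and osteopontin with αV, reached 277, 283 and 280.5 CPM in TGFβ+Si, against 32.4, 29.2 and 29 CPM in Control+NC cells (3.21 ± 0.062, adjusted p = 7.7e-21 in edgeR's test). Itgb5, another αV partner, reached 1499.6, 1435 and 1498 CPM in TGFβ+Si and was at 319, 328 and 326 CPM in Control+NC cells (2.19 ± 0.039). Both steps were positive for both genes, a TGF-β step of 4.93-fold and an siRNA step of 1.88-fold for Itgb3, and 2.38-fold and 1.91-fold for Itgb5. Itgb8, which with αV binds latent TGF-β, ended at 12.1, 9.38 and 10.1 CPM in TGFβ+Si, against 2.61, 4.67 and 3.05 CPM in Control+NC (1.62 ± 0.16), through steps of opposite sign, -0.75 ± 0.21 with TGF-β and 2.37 ± 0.19 with the siRNA. Itgb1, the chain that most α subunits share, rose by 1.16 ± 0.036. Among the other α chains, the collagen receptors Itga2 (2.95 ± 0.087) and Itga11 (2.43 ± 0.057) and the fibronectin receptor Itga5 (1.64 ± 0.05) rose, while besides Itgav the members that fell were Itga1 (-0.73), Itga8 (-0.52) and Itga3 (-0.20).

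Contractile genes split in the net state. Of 23 tested members 8 were higher, 12 lower and 3 not called against Control+NC, with a median net change of -0.52. The TGF-β step had a median of 0.48, with 16 higher and 6 lower, where 23.4% of all genes were higher and 24.8% lower. The siRNA step had a median of -0.79, with 22 of 23 lower and Itga8 not called, where 24.3% of all genes were lower and 24.1% higher. Opposite steps of at least 2-fold each were present in 6 members, Acta2, Tagln, Cnn1, Actg2, Myl9 and Kcnmb1 (over all genes in 1.62%). Of the 23 genes, 10 had a negative and 3 a positive interaction, meaning that the siRNA effect under TGF-β was lower or higher than without stimulus (over all genes 11.0% were negative and 12.2% positive).

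Acta2, the smooth muscle α-actin (ENSMUSG00000035783), ended between its Control+NC and TGFβ+NC levels. TGF-β raised it 3.97-fold in scramble cells and 3.94-fold in siRNA cells (TGFβ+Si over Control+Si). It stood at 2031, 2037 and 2120.4 CPM in TGFβ+Si, at 4079.5, 4145 and 4458 CPM in TGFβ+NC, at 518, 505 and 549 CPM in Control+Si and at 1035, 1059.5 and 1099.9 CPM in Control+NC libraries. No group overlapped another, and the net change was 1.94-fold (0.95 ± 0.041, adjusted p = 5.4e-15). The siRNA lowered it with TGF-β (-1.04 ± 0.041) and without (-1.02 ± 0.041), and the interaction of -0.01 ± 0.058 was not called (adjusted p = 0.91). Tagln, which encodes the actin-binding protein SM22α, had 1005, 975 and 1047 CPM in TGFβ+Si, 2148, 2147 and 2305 CPM in TGFβ+NC and 729.9, 711 and 718 CPM in Control+NC libraries, a net change of 0.49 ± 0.054.

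Cnn1, which encodes calponin, an actin-binding regulator of contraction, came back to its baseline value. Its levels were 21.3, 16.7 and 17.7 CPM in TGFβ+Si, 46.9, 50.2 and 51.9 CPM in TGFβ+NC, 9.87, 7.48 and 10.8 CPM in Control+Si and 19.8, 17.5 and 18.2 CPM in Control+NC libraries. The TGFβ+Si and Control+NC values overlapped, while the TGFβ+NC values were higher and the Control+Si values lower than both. The net change was 0.00 ± 0.12 with a 95% interval of -0.25 to 0.26. Actg2, the γ-actin of smooth muscle, ended at 12.4, 10.6 and 9.84 CPM in TGFβ+Si, against 8.48, 9.94 and 9.64 CPM in Control+NC, with 26.7, 26.1 and 28.4 CPM in TGFβ+NC (net 0.23 ± 0.13, interval -0.04 to 0.50). Both are among the 35 cancelled genes described below. Cnn1 stayed in that set in every fit with 1 library of the groups behind it left out, and Actg2 did not.

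Other contractile genes lay below baseline in the net state, and for Myh11 and Lmod1 the siRNA step exceeded a rise with TGF-β. Myh11, the smooth muscle myosin heavy chain, fell to 8.29, 8.06 and 7.54 CPM in TGFβ+Si, against 21.3, 22.8 and 24.7 CPM in Control+NC (2.88-fold lower, -1.53 ± 0.13, adjusted p = 4.3e-10), although TGF-β alone had raised it to 28.8, 31.8 and 31.6 CPM. Without stimulus the siRNA left it at 18.7, 21 and 20.2 CPM, and its interaction was -1.75 ± 0.17 (adjusted p = 8.5e-08). Lmod1, an actin filament nucleator of muscle, fell to 53.2, 53.8 and 55 CPM in TGFβ+Si, against 121, 122 and 126 CPM in Control+NC (-1.19 ± 0.047). The regulatory myosin light chain Myl9 (-0.61 ± 0.079), the tropomyosin Tpm2 (-1.36 ± 0.07) and the intermediate filament gene Des (-2.55 ± 0.19) were lower as well. Mylk had already fallen with TGF-β alone. It stood at 17.1, 14.6 and 15.5 CPM in TGFβ+Si, 20.2, 20.8 and 19.7 CPM in TGFβ+NC and 32.8, 34.2 and 35.4 CPM in Control+NC libraries. Besides Acta2 and Tagln, the tropomyosin Tpm1 (0.91 ± 0.034) and the actin-associated Synpo2 (1.06 ± 0.058) were higher than baseline.

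**Figure D2:**
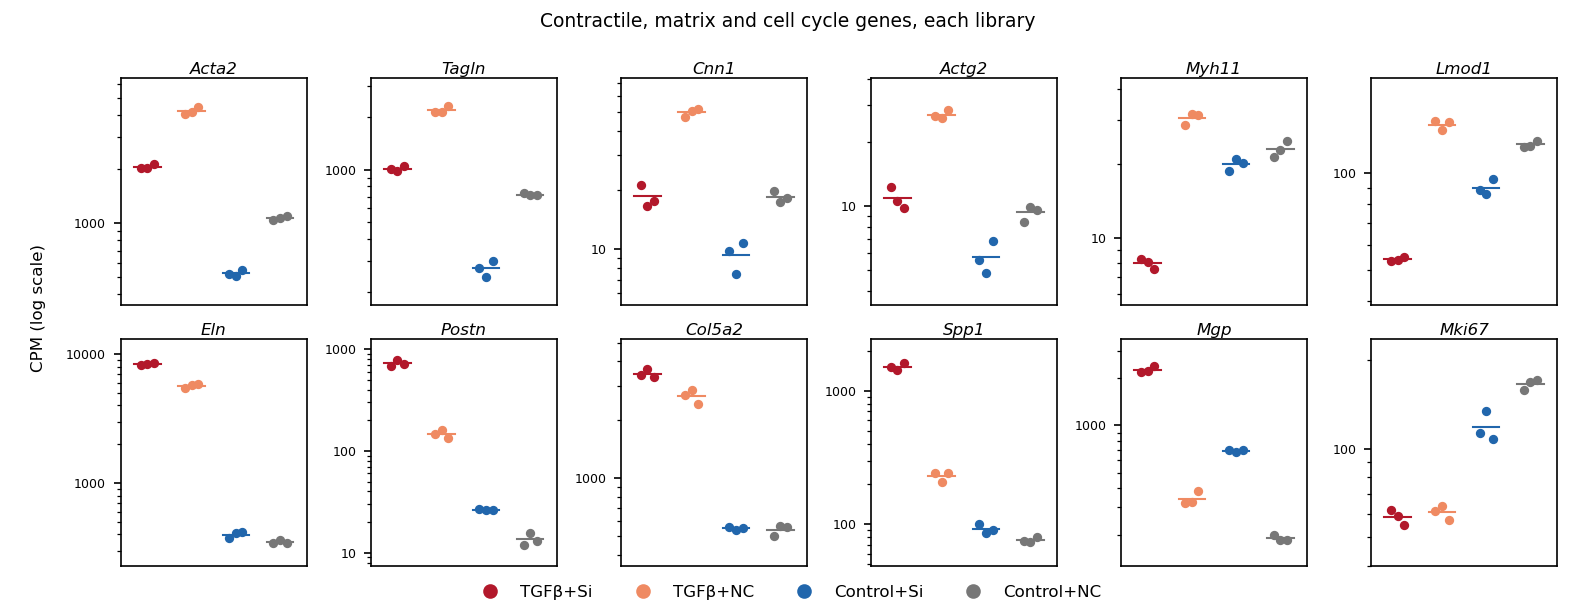
CPM (log scale, a separate range per gene) of contractile, matrix and cell cycle genes in each library of TGFβ+Si, TGFβ+NC, Control+Si and Control+NC cells, with a bar at each mean of 3 libraries. Cnn1 and Actg2 return to the Control+NC level in TGFβ+Si cells, Myh11 and Lmod1 lie below it, the TGFβ+Si libraries are the highest of the 4 groups for Eln, Postn, Spp1 and Mgp, and Mki67 is low in both TGF-β groups.

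Genes that act upstream of the contractile programme were lower or not called, with 1 exception. Of 11 regulators, 6 were lower, 4 were not called and Foxo1 was higher (1.38 ± 0.066). Srf, the transcription factor that binds the CArG boxes of contractile promoters, was at 11.9, 11.6 and 12.5 CPM in TGFβ+Si, against 24.3, 23.3 and 25.8 CPM in Control+NC (-1.03 ± 0.072), with an siRNA step of -1.0 ± 0.073 and a TGF-β step of -0.02 ± 0.067 that was not called. Its coactivator Mrtfa was lower by a smaller amount (-0.43 ± 0.062). Klf4, a factor known for repressing contractile genes, fell to 44.9, 45.1 and 43.6 CPM in TGFβ+Si, against 138, 129 and 136 CPM in Control+NC (-1.59 ± 0.048), with near-equal parts from the TGF-β step (-0.84 ± 0.046) and the siRNA step (-0.75 ± 0.049).

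Focal adhesion genes, whose products link integrins to actin, were lower in 21 of 26 cases, higher in 4 and not called in 1, with a median of -0.45. The siRNA step had nearly the same median (-0.47, 19 lower and 2 higher). The TGF-β step had a median of -0.01, with 10 members higher and 8 lower. Vcl, which encodes the actin linker vinculin, fell to 347, 351 and 337 CPM in TGFβ+Si, against 844, 925 and 943 CPM in Control+NC (-1.39 ± 0.062). Parva, an adaptor bound to integrin-linked kinase, fell to 236, 235 and 238 CPM in TGFβ+Si, against 495, 518 and 509.7 CPM in Control+NC (-1.10 ± 0.038). Of the 21, only Vcl, Parva and the caveolin gene Cav1 (-1.11 ± 0.035) fell by at least 2-fold. Nedd9, an adaptor of the Cas family, went the other way, with 288, 281 and 271 CPM in TGFβ+Si and 68.8, 69.5 and 72 CPM in Control+NC libraries (2.00 ± 0.048), with a TGF-β step of 2.16 ± 0.048.

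Elastic fibre genes were higher in 17 of 21 cases and lower in 2, with a median of 1.34. The siRNA step raised 11 of them and lowered 3, with a median of 0.26, beside a TGF-β step of 1.06 at the median. Eln, which encodes elastin (ENSMUSG00000029675), reached 8247, 8360.3 and 8557 CPM in TGFβ+Si, against 5435, 5764 and 5891 CPM in TGFβ+NC, 374, 407 and 416 CPM in Control+Si and 346, 364 and 346 CPM in Control+NC. The TGFβ+Si libraries lay above all others, 23.8-fold over baseline (4.57 ± 0.049, adjusted p = 9e-24), and the siRNA step of 0.56 ± 0.048 pointed the same way as the TGF-β step of 4.02 ± 0.049. The microfibril-associated gene Mfap4 reached 144, 139 and 142 CPM in TGFβ+Si and was at 7.7, 4.92 and 7.7 CPM in Control+NC libraries (4.38 ± 0.12). Ltbp2, a microfibril protein of the latent TGF-β binding family, rose by 4.29 ± 0.073 and the crosslinking enzyme Loxl3 by 2.36 ± 0.048. The fibulin-type glycoprotein genes Efemp1 and Fbln1 were the 2 that fell: Efemp1 stood at 89.4, 91.6 and 84.7 CPM in TGFβ+Si, against 745, 765 and 728 CPM in Control+NC (-3.07 ± 0.04).

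Collagen genes were higher in 18 of 21 cases and lower in 3 (median 1.5). The TGF-β step raised 16 and lowered 4 of them, and the siRNA step raised 10 and lowered 6. The fibrillar chains Col1a1 and Col1a2 rose 3.95-fold and 4.37-fold. Col1a1 held 5954, 6319 and 5578 CPM in TGFβ+Si and 1433, 1565 and 1525 CPM in Control+NC libraries (1.98 ± 0.058), and Col5a2, a chain of the minor fibrillar collagen V, 3403, 3631 and 3334 CPM in TGFβ+Si and 502, 562 and 555 CPM in Control+NC libraries (2.68 ± 0.064). The cartilage-type chains Col2a1 (2.08 ± 0.061) and Col11a1 (2.48 ± 0.063) were higher than baseline although the siRNA step lowered both (-0.69 ± 0.058 and -0.26 ± 0.062). The 3 lower members were Col14a1 (-2.80), Col6a2 (-0.89) and Col6a1 (-0.46).

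Among proteoglycans and matricellular genes, 16 of 23 were higher and 6 lower. The interaction was called positive in 13 of the 23 and negative in 7 (over all genes 12.2% were positive and 11.0% negative). Postn, which encodes the matrix protein periostin, reached 687, 782 and 707 CPM in TGFβ+Si, against 147, 159 and 133 CPM in TGFβ+NC, 26.7, 26 and 26.2 CPM in Control+Si and 11.8, 15.6 and 13.1 CPM in Control+NC libraries. Its net change was 5.75 ± 0.096, from a TGF-β step of 3.44 ± 0.098 and an siRNA step of 2.31 ± 0.076. Spp1, which encodes osteopontin, an αV ligand and marker of modulated smooth muscle, reached 1508, 1442 and 1608 CPM in TGFβ+Si, against 242, 206 and 243 CPM in TGFβ+NC, 101, 86 and 91 CPM in Control+Si and 74.6, 73.5 and 80 CPM in Control+NC. The siRNA raised Spp1 by 2.72 ± 0.067 with TGF-β and by 0.29 ± 0.072 without. Fn1, which encodes fibronectin, rose by 1.72 ± 0.077, again with both steps positive (TGF-β step 0.71 ± 0.077, siRNA step 1.01 ± 0.077). Of the small leucine-rich proteoglycans on the list, Prelp fell to 42.7, 41.6 and 38.5 CPM in TGFβ+Si, against 437, 466 and 458 CPM in Control+NC (-3.47 ± 0.061), and Ogn (-3.29), Fmod (-1.84) and Dcn (-1.69) fell too, while Lum (1.46) and Aspn (2.70) rose.

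Cartilage and bone genes rose in 10 of 14 tested cases and fell in 2, with a median of 1.26, above the median of either step (0.20 and 0.40). Alpl, Bglap, Ibsp, Chad, Cytl1 and Hapln1, also on this list of 20 genes, did not pass the low-count filter. Mgp, an inhibitor of calcification, was at 2190.1, 2213 and 2409 CPM in TGFβ+Si, 317, 323 and 380.4 CPM in TGFβ+NC, 699, 679 and 693 CPM in Control+Si and 198, 186 and 186 CPM in Control+NC libraries (3.58 ± 0.06). Its siRNA step under TGF-β was 2.74 ± 0.06 and its siRNA effect without stimulus 1.86 ± 0.06. Col10a1, a collagen of hypertrophic cartilage, stood at 67, 70.6 and 62.6 CPM in TGFβ+Si, against 5.54, 7 and 7.89 CPM in Control+NC (3.29 ± 0.12). Runx1, a transcription factor of the Runt family, rose by 2.49 ± 0.081, and Bmp4 and Sox5 were the 2 that fell.

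Matrix proteases and their inhibitors moved both ways, 15 of 29 higher and 11 lower. Plau, which encodes the plasminogen activator urokinase, fell to 7.49, 6.24 and 5.67 CPM in TGFβ+Si, against 89.4, 89 and 84.5 CPM in Control+NC (-3.76 ± 0.09). Adamts1, a protease that can cleave aggrecan, changed by -2.06 ± 0.04. Of the metalloprotease inhibitors, Timp3 rose to 7359, 7544 and 7022 CPM in TGFβ+Si, against 1143, 1276 and 1206 CPM in Control+NC (2.60 ± 0.047), whereas Timp2 fell to 1264, 1285 and 1282 CPM in TGFβ+Si, against 3854, 4091 and 3988 CPM in Control+NC (-1.64 ± 0.036). The cysteine protease gene Ctsl rose by 1.81 ± 0.031.

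In the TGF-β pathway, 12 of 27 genes were higher, 10 lower and 5 not called, with a median of 0.08 (over all genes 31.6% were higher and 32.8% lower). Pmepa1, a feedback inhibitor that TGF-β is known to induce, reached 908, 884 and 907 CPM in TGFβ+Si, 699.7, 685 and 739 CPM in TGFβ+NC and 116, 118 and 125 CPM in Control+NC libraries (2.91 ± 0.048), with an siRNA step of 0.35 ± 0.047 on top of its TGF-β rise. The SMAD corepressor Skil was likewise higher (2.19 ± 0.072). Id1 and Id2, inhibitors of helix-loop-helix factors, were lower: Id2 was at 10.4, 11.5 and 11.9 CPM in TGFβ+Si, against 102, 99.4 and 98.8 CPM in Control+NC (-3.15 ± 0.08), and Id1 changed by -2.44 ± 0.073, both with 2 negative steps.

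Cell cycle genes were lower in 39 of 41 cases, and 26 of them fell by at least 2-fold. Their median net change was -1.20, beside -1.17 for the TGF-β step (38 lower) and 0.05 for the siRNA step (9 higher, 7 lower). Mki67, a marker of dividing cells, had 61.8, 59.1 and 54.9 CPM in TGFβ+Si, 61.5, 64 and 57.4 CPM in TGFβ+NC, 113, 134 and 108 CPM in Control+Si and 158, 168 and 171 CPM in Control+NC libraries (-1.50 ± 0.07). Cdc20, an activator of the anaphase-promoting complex, fell to 16.3, 15 and 15.9 CPM in TGFβ+Si, against 52.1, 50.7 and 53.7 CPM in Control+NC (-1.73 ± 0.073). Mcm6 (0.60) and Tyms (0.19) were the 2 that were higher. Without stimulus the siRNA lowered 33 of the 41 and raised 2 (median -0.46), where 27.5% of all genes were lowered and 26.0% raised. A positive interaction was called for 27 members and a negative one for 1, where 12.2% of all genes were positive and 11.0% negative.

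Cholesterol synthesis genes were lower in 18 of 24 cases and higher in 6 (median -0.60). The siRNA step had a median of -0.65 with 19 lower and 3 higher, and the TGF-β step one of -0.01 with 7 higher and 5 lower. Idi1, an isomerase of the mevalonate pathway, fell to 73.6, 67.6 and 75.1 CPM in TGFβ+Si, against 210, 211 and 193 CPM in TGFβ+NC and 222, 219.6 and 230.3 CPM in Control+NC (-1.64 ± 0.061). Hmgcs1, an early enzyme of the pathway, had 149, 154 and 158 CPM in TGFβ+Si and 352, 354 and 347 CPM in Control+NC libraries (-1.19 ± 0.042). Insig1, a sterol-sensing brake on the pathway, was higher (1.27 ± 0.046).

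Among called genes that averaged at least 5 CPM over the 6 libraries and whose groups did not overlap (over all genes, TGFβ+Si libraries lay wholly above Control+NC in 34.4% and wholly below in 35.3%), the 3 largest net rises started from very low baseline levels. Fxyd6, a regulator of the sodium pump, stood at 68.4, 74.9 and 67.6 CPM in TGFβ+Si, 10.6, 11.5 and 12.2 CPM in TGFβ+NC and 0.0917, 0.0507 and 0.194 CPM in Control+NC libraries (9.21 ± 0.52). Olr1, a receptor for oxidised lipoprotein, stood at 123, 132 and 136 CPM in TGFβ+Si and 0.367, 0.152 and 0.145 CPM in Control+NC libraries (9.13 ± 0.39), and Adamtsl2, a microfibril-binding glycoprotein, at 59.4, 62.6 and 56.2 CPM in TGFβ+Si and 0.0458, 0.203 and 0.0969 CPM in Control+NC libraries (8.96 ± 0.55). Baseline values this low make the fold changes imprecise, as their standard errors show. The cadherins Cdh10 (8.06 ± 0.54) and Cdh6 (6.67 ± 0.62), the actin-organising Klhl1 (6.87 ± 0.64), the retinoic acid carrier Crabp2 (6.74 ± 0.32), Olfm2 (6.24), Megf10 (6.17), the adhesion molecule Cadm1 (5.95), Igfbp5 and Postn completed the 12 largest rises. Cdh10, Cdh6 and Klhl1 also started very low, at means of 0.159, 0.0967 and 0.0991 CPM in Control+NC, so their fold changes are as imprecise. Igfbp5, which encodes a binding protein of insulin-like growth factors, was at 209, 241 and 195 CPM in TGFβ+Si, 4.93, 8.98 and 6.94 CPM in TGFβ+NC, 4.35, 5.72 and 6.17 CPM in Control+Si and 1.47, 2.03 and 1.89 CPM in Control+NC libraries (6.91 ± 0.22). Neither treatment alone brought it near its level in the cells with both. Its interaction of 3.34 ± 0.28 was called (adjusted p = 6.6e-08).

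The 12 largest falls were taken by the same rule. Adm, which encodes the vasodilator peptide adrenomedullin, fell to 2.12, 1.93 and 1.5 CPM in TGFβ+Si, against 8.47, 7.85 and 9.32 CPM in TGFβ+NC, 37.7, 31.4 and 37.1 CPM in Control+Si and 85.6, 87.2 and 87.6 CPM in Control+NC (-5.55 ± 0.16, 47-fold lower). Crct1 fell to 1.72, 1.99 and 2.09 CPM in TGFβ+Si, against 105, 94.6 and 93.6 CPM in Control+NC (-5.65 ± 0.14), and the membrane glycoprotein gene Gpm6a to 6.12, 7.45 and 6.52 CPM in TGFβ+Si, against 234, 236 and 235 CPM in Control+NC (-5.13 ± 0.063). Folh1, a cell-surface glutamate carboxypeptidase, changed by -5.48 ± 0.26, Pygm, the muscle glycogen phosphorylase, by -4.76 ± 0.21, and Inhbb, which encodes a subunit of activin B, by -4.26 ± 0.083. Tnfsf15 (-4.62), Pkhd1l1 (-4.53), Nkain4 (-4.50), Ica1l (-4.32), the sulfotransferase Sult1a1 (-4.29) and Selenbp1 (-4.28) completed the 12. The highest adjusted p among these 24 genes was 8.9e-13 in edgeR's test.

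Steps of the same sign, each called and at least 2-fold, were found in 295 genes (1.86% of those tested), 182 raised and 113 lowered. Ranked by the smaller of the 2 steps among genes with at least 5 CPM in a group, Fut9, a fucosyltransferase, was among the first 5 raised genes. It had 399 counts over the 3 TGFβ+Si libraries and 0 over the 3 Control+NC libraries, which is at least 152-fold higher when the 3 counts that a count of 0 allows over the group are used. Crabp2 (TGF-β step 2.93 ± 0.34, siRNA step 3.81 ± 0.17), Cdh6 (TGF-β step 3.20 ± 0.65, siRNA step 3.47 ± 0.29), Adamtsl2 and Olr1 were the others. The first 5 lowered genes were Dnajb13, Gpm6a, Adm, Crct1 and Slurp1. Dnajb13 had 3 counts over the TGFβ+Si libraries and 370 over Control+NC, a ratio of 108 in favour of Control+NC with a 95% counting interval of 36.6 to 525. The intervals and floors cover counting error only. Of the gene lists, proteoglycans and matricellular genes held 7 of these 295 among 23 tested members. Matrix proteases and inhibitors held 5 among 29, where the share over all genes was 1.86%.

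Opposite steps, each called and at least 2-fold, were found in 257 genes (1.62%). Of these, 180 were lowered by TGF-β and raised by the siRNA, and 77 raised by TGF-β and lowered by the siRNA. Because the TGFβ+NC libraries enter the 2 steps with opposite sign, a deviation in them moves the 2 steps in opposite directions, and these counts are given as a description. For most of them the interval of the net change did not lie within 1.5-fold of baseline. Of the 180, 16 stayed beyond 1.5-fold on the TGF-β side, 37 went beyond 1.5-fold on the siRNA side, and 110 had an interval that crossed the 1.5-fold mark. Of the 77, 10 stayed on the TGF-β side, 3 went beyond on the siRNA side and 46 had an interval that crossed it.

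That left 35 genes (0.221%) whose opposite steps cancelled, with the 95% interval of the net change within 1.5-fold of baseline, which is 0.585 on the log2 scale. They were 18 raised and 17 lowered by TGF-β. For 13 of the 35 a small net difference was still called. The count depends on the limits set: with a band of 25% above baseline (and the same distance below it on the log2 scale) it was 11, with one of 2-fold 88, and with steps of at least 1.5-fold 150. It also depends on the path between the 2 groups: by the siRNA effect in unstimulated cells and then the TGF-β effect in siRNA cells, 98 genes met the same rule, 58 raised and 40 lowered by the siRNA, and 20 genes met it by both paths. Close to the limit, Elmo1 (net 0.16, interval -0.24 to 0.55) and Ypel1 (0.22, -0.12 to 0.56) were just inside and Abcb1a (-0.28, -0.59 to 0.02) and Lonrf3 (-0.12, -0.59 to 0.34) just outside. Leaving out each library of TGFβ+Si, TGFβ+NC or Control+NC in turn, 23 of the 35 stayed in the set in all 9 fits. Actg2, Myct1, Lrp2, Trim16, Plekhg2, Nrip3, Sp100, Trim21, Elmo1, Ypel1, B3gnt8 and A830082K12Rik left it in at least 1 fit.

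**Figure D3:**
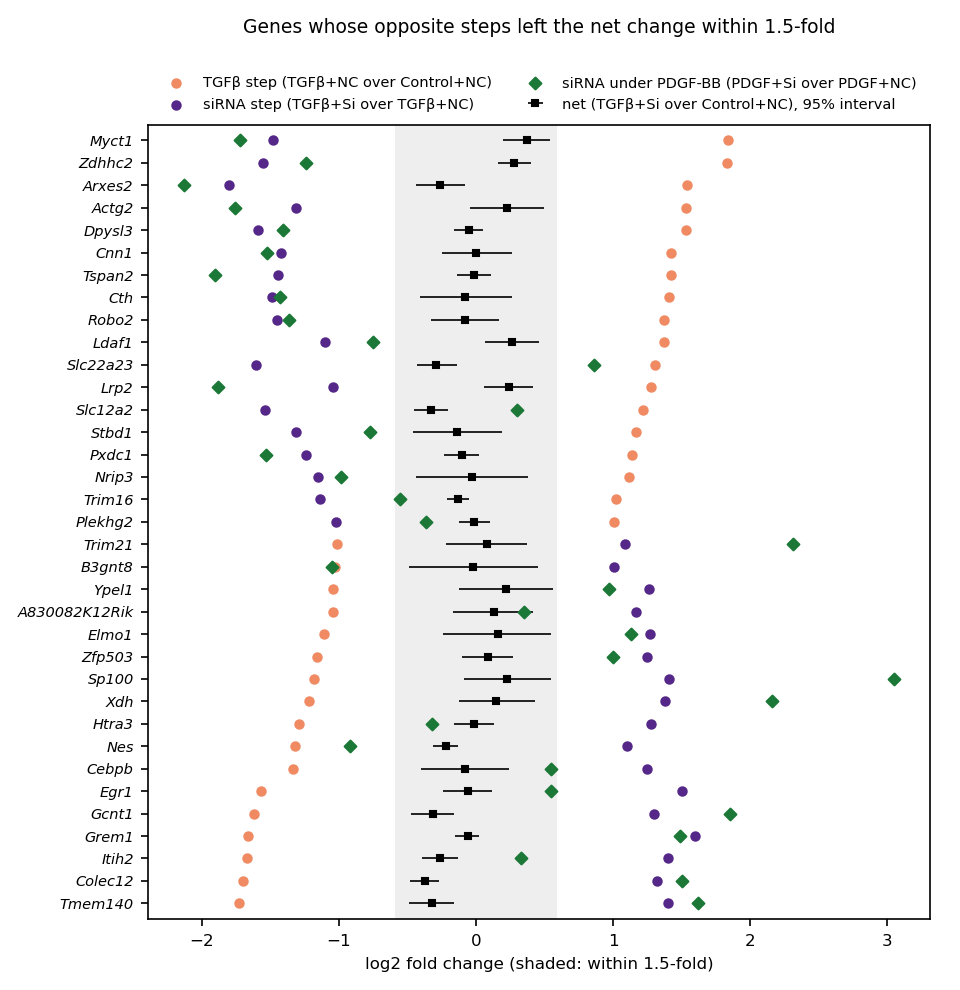
The 35 cancelled genes, 1 per row, with the log2 fold change of the TGF-β step (orange), the siRNA step under TGF-β (purple), the net change with its 95% interval (black), and the siRNA effect in the PDGF-BB libraries (green diamonds). The grey band marks a net change within 1.5-fold. Of the 18 genes with the orange point right of 0, 16 have their diamond left of 0. Of the 17 with the orange point left of 0, 14 have it right of 0.

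Genes that TGF-β raised and the siRNA lowered included cytoskeletal, membrane and metabolic genes beside Cnn1 and Actg2. TGF-β still raised each of them in siRNA cells (TGFβ+Si over Control+Si), from 1.37-fold for Slc12a2 to 4.63-fold for Tspan2. In scramble cells TGF-β raised these genes 2.32-fold and 2.68-fold. Tspan2, a tetraspanin of smooth muscle (ENSMUSG00000027858, chromosome 3, 102734529 to 102801513 on the plus strand), stood at 76.6, 78.8 and 77.1 CPM in TGFβ+Si, 210.2, 212 and 207 CPM in TGFβ+NC, 14.3, 18.8 and 17.1 CPM in Control+Si and 73.6, 78.7 and 82.4 CPM in Control+NC libraries. The TGFβ+Si values lay within the range of the Control+NC values (net -0.01 ± 0.059, interval -0.14 to 0.11). Dpysl3, a cytoskeletal protein of the collapsin response mediator family, had 261, 274 and 271 CPM in TGFβ+Si, 814, 842 and 763 CPM in TGFβ+NC and 276, 278 and 282 CPM in Control+NC libraries, a net change of -0.05 ± 0.051 (interval -0.16 to 0.05). Cth, the cystathionine γ-lyase of cysteine synthesis, had 5.55, 5.24 and 4.28 CPM in TGFβ+Si, 12.9, 13.7 and 15.7 CPM in TGFβ+NC and 5.13, 5.63 and 5.13 CPM in Control+NC libraries (net -0.08 ± 0.16, interval -0.41 to 0.26).

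Robo2, a guidance receptor for Slit ligands, ended at a net change of -0.08 ± 0.12, from a TGF-β step of 1.37 and an siRNA step of -1.45. The palmitoyltransferase gene Zdhhc2, with 100.1, 109 and 104 CPM in TGFβ+Si, 305, 310.4 and 300.1 CPM in TGFβ+NC and 84.8, 86.6 and 86.9 CPM in Control+NC libraries, kept a small rise (net 0.28 ± 0.057, adjusted p = 0.00022), as did Myct1 (0.37 ± 0.082, adjusted p = 0.0005). Arxes2 (-0.26 ± 0.085) and the transporter gene Slc22a23 (-0.29 ± 0.072) ended slightly below baseline. Arxes2 has a near-identical neighbour on the X chromosome, Arxes1, so its reads may have been split. Its net difference was no longer called without TGFβ+Si replicate 2 (-0.23, adjusted p = 0.052).

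The remaining 8 TGF-β-raised genes had net changes between -0.33 for the ion cotransporter Slc12a2 and 0.26 for the lipid droplet gene Ldaf1, with the endocytic receptor Lrp2 (0.24), Stbd1 (-0.14), Trim16 (-0.13), Pxdc1 (-0.10), Nrip3 (-0.03) and Plekhg2 (-0.01) between them.

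Genes that TGF-β lowered and the siRNA raised under TGF-β included a secreted BMP antagonist and transcription factors. In siRNA cells TGF-β still lowered most of them (TGFβ+Si over Control+Si), such as Grem1 (-1.41 ± 0.042), Egr1 (-1.11 ± 0.081) and Gcnt1 (-2.63 ± 0.069). The exceptions, raised by TGF-β in siRNA cells, were Nes (0.66), Htra3 (0.62), B3gnt8 (0.76) and A830082K12Rik (0.59). Grem1, which encodes gremlin (ENSMUSG00000074934, chromosome 2, 113746164 to 113758646 on the minus strand), stood at 484, 476 and 468 CPM in TGFβ+Si, 163, 160.5 and 148 CPM in TGFβ+NC, 1286, 1249.9 and 1267 CPM in Control+Si and 479, 503 and 513 CPM in Control+NC libraries. TGFβ+Si and Control+NC values overlapped (net -0.06 ± 0.043, interval -0.15 to 0.02), with Control+Si far above both. Egr1, an immediate early transcription factor, had 24.4, 22.2 and 21.2 CPM in TGFβ+Si, 6.85, 9.35 and 7.64 CPM in TGFβ+NC and 22.7, 26.5 and 21.7 CPM in Control+NC libraries (net -0.06 ± 0.086, interval -0.24 to 0.12). Cebpb, a transcription factor of inflammatory and metabolic genes, had 18.4, 17.2 and 17.4 CPM in TGFβ+Si, 6.27, 6.34 and 9.66 CPM in TGFβ+NC and 19.7, 17.9 and 18.4 CPM in Control+NC libraries (net -0.08 ± 0.15).

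Htra3, a secreted serine protease, stood at 27.6, 23.6 and 27.2 CPM in TGFβ+Si and 26.9, 26.9 and 25.2 CPM in Control+NC libraries, with 10.9, 10.2 and 11.2 CPM in TGFβ+NC (net -0.01 ± 0.07, interval -0.16 to 0.13). Small net falls were called for the scavenger receptor Colec12 (-0.37 ± 0.05), Itih2 (-0.26 ± 0.063), the glycosyltransferase Gcnt1 (-0.31 ± 0.076) and Tmem140 (-0.32 ± 0.079). Xdh, the xanthine dehydrogenase (0.15 ± 0.13), and Sp100, a nuclear body protein that interferon induces (0.23 ± 0.15), had net changes that were not called. Sp100 was called under 2 alternatives: without Control+NC replicate 2 the net change was 0.44 (adjusted p = 0.014), and with no low-count filter it was 0.21 (adjusted p = 0.036). Its Control+NC values of 11.6, 21.1 and 16.7 CPM were, like those of Trim21 (11.4, 17.5 and 16.7 CPM), lowest in replicate 1. The intermediate filament gene Nes kept a small net fall (-0.22 ± 0.043, adjusted p = 0.00013). Net changes of Zfp503 (0.09), Elmo1, A830082K12Rik (0.13), Ypel1, B3gnt8 (-0.02) and the ubiquitin ligase Trim21 (0.08) were not called. For 4 of the 17, Nes, Htra3, B3gnt8 and A830082K12Rik, the siRNA acted the other way without TGF-β. Its effect on Nes was 1.10 ± 0.044 with TGF-β and -0.88 ± 0.043 without (interaction 1.98 ± 0.062, adjusted p = 4.9e-15), and on Htra3 1.28 ± 0.079 with TGF-β and -0.64 ± 0.073 without (interaction 1.92 ± 0.11, adjusted p = 2.6e-11). The effect without TGF-β was -0.78 ± 0.24 on B3gnt8 (adjusted p = 0.009; interaction 1.79 ± 0.35) and -0.46 ± 0.15 on A830082K12Rik (adjusted p = 0.013; interaction 1.63 ± 0.22).

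The levels in the PDGF-BB libraries did not enter the steps or the net change by which these genes were chosen. Those libraries did share the filter and the estimate of spread of the fit. They gave a further measure of the siRNA effect. Of the 18 genes that TGF-β raised, 16 were lower and 2 higher in PDGF+Si than in PDGF+NC, with a median of -1.39, whereas 29.9% of all genes were lower and 29.4% higher. The shares over all genes are not limited to genes with an siRNA step under TGF-β. Tspan2 was at 13.3, 13.8 and 13.6 CPM in PDGF+Si, against 48.8, 51.4 and 51.7 CPM in PDGF+NC (-1.90 ± 0.072, adjusted p = 1.6e-15), and Cnn1 at 2.69, 2.53 and 4.1 CPM in PDGF+Si, against 7.52, 9.73 and 9.25 CPM in PDGF+NC (-1.52 ± 0.18, adjusted p = 1.1e-07). The 2 exceptions were Slc22a23 (0.86 ± 0.076) and Slc12a2 (0.30 ± 0.061). Among the 17 that TGF-β lowered, 14 were higher and 3 lower (median 1.0). Grem1 stood at 2739, 2937 and 2998 CPM in PDGF+Si, against 986, 1068 and 1032 CPM in PDGF+NC (1.49 ± 0.042, adjusted p = 2.8e-17), and Sp100 changed by 3.05 ± 0.15. The 3 lower genes were Nes (-0.92 ± 0.041), Htra3 (-0.32 ± 0.072) and B3gnt8 (-1.05 ± 0.23). Without Control+NC replicate 1, 26 genes met the rule on the TGF-β-lowered side in place of 17, and 24 of them were higher with the siRNA under PDGF-BB.

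Genes of the interferon list mostly had opposed steps and ended above baseline. Of 40 members, 31 were lower in the TGF-β step (median -1.13), all 40 were higher in the siRNA step (median 2.70), and in the net comparison 35 were higher, 1 lower and 4 not called (median 1.11), 21 of the 35 by at least 2-fold. Opposite steps of at least 2-fold were present in 22 members (over all genes in 1.62%), and none of the 40 met the rule for a cancelled gene. Sp100, which interferon also induces but which is not on this list, was among the cancelled genes. The 1 lower member was the guanylate-binding protein gene Gbp2 (-0.65 ± 0.2), and Ifi35, Ifit2, Oas2 and Zbp1 were not called. In unstimulated cells the siRNA raised all 40, with a median of 3.97, where 26.0% of all genes were raised. All 40 were lower in TGFβ+Si than in Control+Si cells (median -2.81), where 29.6% of all genes were lower. A negative interaction was called for 26 and a positive one for none, where 11.0% of all genes were negative and 12.2% positive.

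The promoters of these genes were searched for the element through which interferon acts. Interferon-stimulated response elements, which bind complexes of STAT and IRF factors, have a core of GAAA, 2 bases of any kind and GAAA again, and this was searched on both strands of the 250 bases before each RefSeq gene start (GRCm38.p6), which was found for 11179 of the 15832 genes. The core was present in 2.62% of these promoters, in 24 of 109 for genes lowered by TGF-β and raised by the siRNA, in 0 of 43 for genes raised by TGF-β and lowered by the siRNA, and in 17 of 29 members of the interferon list. Among the cancelled genes with a promoter in the table, 1 of the 14 lowered by TGF-β had it, Tmem140. The 200 bases before the start are printed below for Ifit3 and Irgm1, which ended above baseline, and for Tmem140, which ended close to it, 5′ to 3′ along each gene's strand with the core in capitals. In Ifit3 the core lies on the opposite strand and reads TTTC, 2 bases, TTTC, and in Irgm1 2 cores overlap.
Ifit3, chr19:34583329-34583528, plus strand: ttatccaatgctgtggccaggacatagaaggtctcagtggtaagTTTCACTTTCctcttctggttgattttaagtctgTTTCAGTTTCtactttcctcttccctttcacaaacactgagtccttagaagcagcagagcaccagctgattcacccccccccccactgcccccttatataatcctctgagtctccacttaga
Irgm1, chr11:48871421-48871620, minus strand: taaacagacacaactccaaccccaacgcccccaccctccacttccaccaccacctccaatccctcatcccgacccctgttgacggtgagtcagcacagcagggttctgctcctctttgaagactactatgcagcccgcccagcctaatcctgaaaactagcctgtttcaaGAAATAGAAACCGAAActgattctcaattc
Tmem140, chr6:34862946-34863145, plus strand: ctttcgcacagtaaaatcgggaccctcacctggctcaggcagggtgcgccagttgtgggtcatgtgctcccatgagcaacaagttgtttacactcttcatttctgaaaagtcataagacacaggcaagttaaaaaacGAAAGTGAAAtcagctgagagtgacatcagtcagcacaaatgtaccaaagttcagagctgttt
Irgm1, an immunity-related GTPase, had 481, 476 and 496 CPM in TGFβ+Si, 198, 194 and 189 CPM in TGFβ+NC, 1074, 1005 and 1076 CPM in Control+Si and 193, 298 and 286 CPM in Control+NC libraries (0.90 ± 0.1). Tmem140 had 30.8, 26.7 and 27.4 CPM in TGFβ+Si, 11.9, 10 and 10.2 CPM in TGFβ+NC, 109, 108 and 108 CPM in Control+Si and 33.2, 37.1 and 35.9 CPM in Control+NC libraries, a net change of -0.32 ± 0.079. Control+Si was the highest and TGFβ+NC the lowest group for Tmem140, and its TGFβ+Si values lay just below those of Control+NC, whereas for Irgm1 they lay above all Control+NC values. A match of these letters is a description of the sequence and not a measured binding site. The CArG box of SRF was present in 1.15% of all promoters and in 3 of 19 of the contractile list.

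Ifit3, an antiviral protein of the tetratricopeptide family, shows the order of the groups. It stood at 225, 279 and 227 CPM in TGFβ+Si, 30.3, 26.2 and 35.5 CPM in TGFβ+NC, 3075, 2866 and 3300.1 CPM in Control+Si and 52.2, 93 and 88.7 CPM in Control+NC libraries. The net change was 1.65 ± 0.17, from a TGF-β step of -1.34 ± 0.19 and an siRNA step of 2.99 ± 0.18. Its near-identical copy Ifit3b (1.55 ± 0.2) may share reads with it. Oasl2, an oligoadenylate synthetase-like protein, had 38.8, 31.1 and 33.4 CPM in TGFβ+Si, 2.26, 1.77 and 3.24 CPM in TGFβ+NC, 241, 204 and 239 CPM in Control+Si and 1.7, 7.61 and 4.46 CPM in Control+NC libraries (2.93 ± 0.26). Usp18, a feedback inhibitor of interferon signalling, rose by 2.67 ± 0.24 and Ifi44 by 3.78 ± 0.26. Mx1, an antiviral GTPase, had at most 1 count per Control+NC library, so only its levels are given: 1.03, 3.48 and 1.23 CPM in TGFβ+Si and 0, 0.0507 and 0.0484 CPM in Control+NC libraries.

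These net changes rest in part on 1 baseline library. Ifi44 stood at 130, 111 and 122 CPM in TGFβ+Si and at 2.25, 12.8 and 11.8 CPM in Control+NC replicates 1, 2 and 3, and replicate 1 was the lowest for 37 of the 40 genes. Without it, 32 of 40 members were higher and 1 lower, with a median of 0.85, and Gbp3, Gbp6 and Gbp7 were no longer called. The net change without replicate 1 was 1.42 for Ifit3, 1.24 for Ifit3b, 2.51 for Oasl2, 2.25 for Usp18, 3.3 for Ifi44, 0.73 for Irgm1 and -0.9 for Gbp2, each still called, and -0.37 for Tmem140. Over all alternatives tried, 32 to 36 were higher and the median lay between 0.85 and 1.3.

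**Figure D4:**
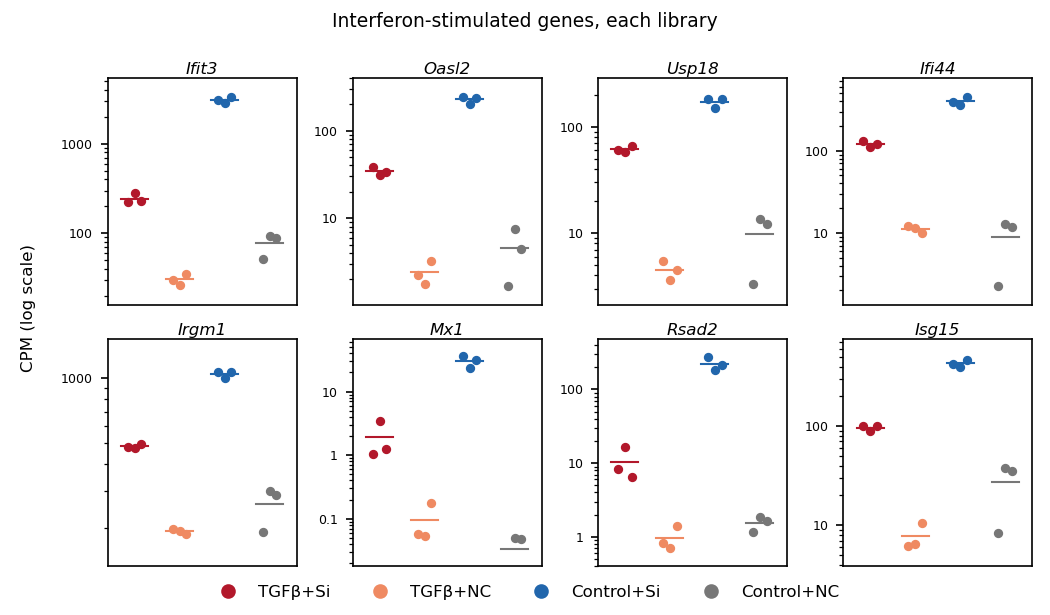
CPM (log scale, a separate range per gene) of 8 interferon-stimulated genes in each library, with a bar at each mean of 3 libraries. Control+Si libraries are the highest for each gene, TGFβ+Si libraries lie between them and the Control+NC libraries, and replicate 1, the left point of Control+NC, is low. A value of 0, as for Mx1 in 1 Control+NC library, cannot be drawn on the log axis.

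Antigen presentation genes, which interferon also induces, went both ways. Of 17 tested, 6 were higher, 5 lower and 6 not called, shares close to those over all genes (31.6% higher, 32.8% lower). For 5 of the 17 the interval lay within 1.5-fold of baseline, as it did for 38.2% of all genes. The net median was 0.03, beside a TGF-β step of -0.55 (13 lower, 1 higher) and an siRNA step of 0.58 (10 higher, none lower) at the median. H2-K1, a class I heavy chain, was higher, with 78.7, 67.3 and 71.6 CPM in TGFβ+Si and 29.1, 34.4 and 31 CPM in Control+NC libraries (1.20 ± 0.12). The peptide transporter subunit Tap2 (-0.42 ± 0.075) and the proteasome activators Psme1 (-0.60 ± 0.082) and Psme2 (-0.48 ± 0.063) were lower. Class I genes share reads between near-identical copies, so single members are uncertain.

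Inflammatory and NF-κB genes moved both ways, 13 of 26 higher and 8 lower (median 0.39). Il11, a fibrosis-related cytokine that TGF-β is known to induce, reached 19.2, 15.2 and 17.7 CPM in TGFβ+Si, against 6.27, 5.48 and 5.61 CPM in TGFβ+NC and 0.733, 0.66 and 0.63 CPM in Control+NC libraries (4.67 ± 0.2). Both of its steps were positive, the TGF-β step at 3.09 ± 0.2 and the siRNA step at 1.58 ± 0.13. Il6 rose by 2.54 ± 0.1, with a TGF-β step of 2.94 ± 0.1 and an siRNA step of -0.40 ± 0.084. The adhesion molecule gene Icam1 fell to 24.6, 25.3 and 25.7 CPM in TGFβ+Si, against 71.9, 66.2 and 67.1 CPM in Control+NC (-1.44 ± 0.07), and Il33, an alarmin, changed by -1.53 ± 0.34.

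Markers of other cell types were also summed. Summed over 6 mesothelial markers, expression was 25.3 to 30.9 CPM in TGFβ+Si and 154 to 165 CPM in Control+NC libraries, with 4 of 5 tested markers lower and 1 higher. Sums over 10 endothelial markers were 103 to 111 CPM in TGFβ+Si and 86.5 to 103 CPM in Control+NC, with Erg higher and 4 markers lower. Erg alone held 44.6 to 47.5 CPM of the sum in TGFβ+Si and 5.76 to 8.11 CPM in Control+NC, so the higher sum rests on Erg. Sums over 8 macrophage markers were 11.9 to 14.9 CPM in TGFβ+Si and 17.6 to 20.6 CPM in Control+NC, and those over 10 adventitial fibroblast markers 810.0 to 871 CPM in TGFβ+Si and 840.2 to 905 CPM in Control+NC, with 4 higher and 4 lower. Most of the fibroblast sums was Gsn, at 699 to 753 CPM in TGFβ+Si and 683 to 743 CPM in Control+NC. These sums therefore say little about the other fibroblast markers. The 4 adipocyte markers summed to 7.33 to 10.3 CPM in TGFβ+Si and 11.6 to 13.1 CPM in Control+NC, and the 5 lymphocyte markers to at most 0.171 CPM in TGFβ+Si and 0.0484 CPM in Control+NC. The lymphocyte markers Cd3e and Cd3g and the adipocyte markers Plin1 and Cidec were at 0 in all 6 libraries. In bulk RNA, fewer cells of a type and less RNA per cell cannot be told apart, and the part of such cells in the results above was not tested.

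**Figure D5:**
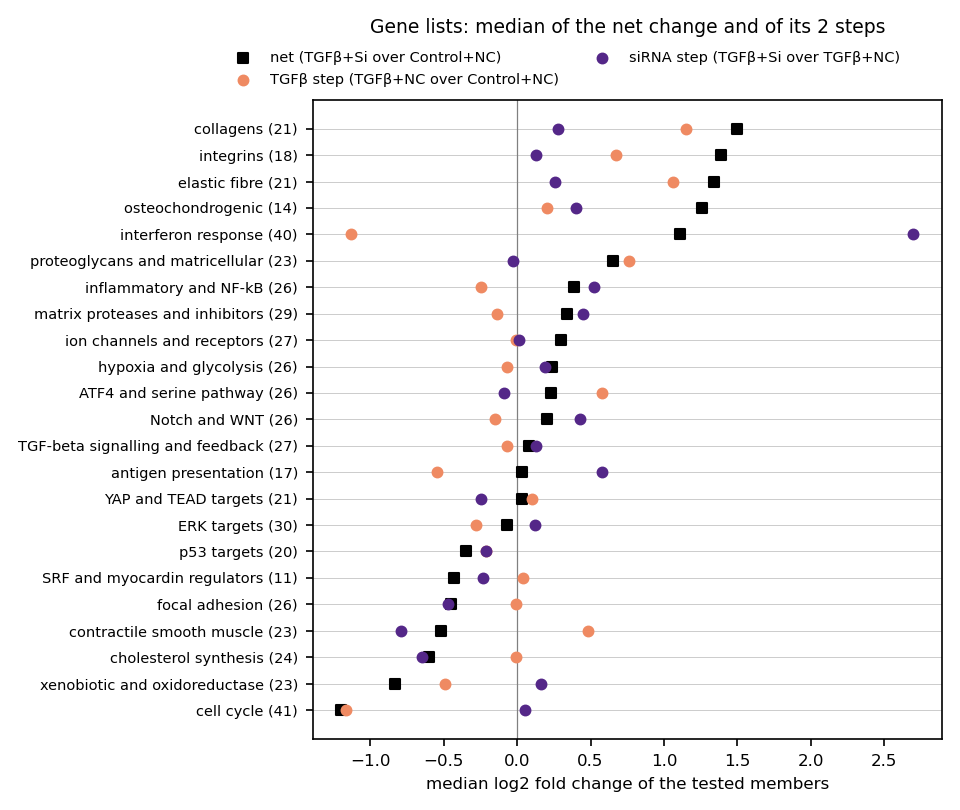
Median log2 fold change over the tested members (number in brackets) of 23 gene lists for the net change (black squares), the TGF-β step (orange) and the siRNA step under TGF-β (purple), ordered by the net median. Collagens have the highest net median (1.5) and cell cycle genes the lowest (-1.20), the interferon list has its 2 steps on opposite sides of 0 (-1.13 and 2.70), and antigen presentation ends at 0.03.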

How the data were processed

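RNA of 18 libraries in 6 groups of 3 was sequenced. The authors deposited 1 table of gene values, used here as estimated counts (unnormalized, 76.2% of the values above 0 exactly whole as deposited), for 57180 genes. HISAT2 2.2.1, StringTie 2.1.6 and the mm10 build are named in the submitters' processing notes, without their roles. Neither the annotation release, the strand setting nor the handling of reads shared between similar genes is given in the sources used here. A table per transcript was not used here. Every library column used was matched to a library by its label.

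Counts were rounded to whole numbers and filtered with edgeR's filterByExpr (minimum count 10), which left 15832 genes with at least 99.91% of the counts. Library sizes were scaled by TMM (factors 0.925 to 1.07). All 18 libraries entered 1 quasi-likelihood fit with a mean per group (edgeR 4.0.16, limma 3.58.1, R 4.3.3), with 12 residual degrees of freedom and a biological coefficient of variation of 6.01%. All contrasts came from that fit, adjusted by Benjamini-Hochberg over all genes. The standard errors are Wald errors. The interaction is the siRNA effect under TGF-β minus that without stimulus. A gene was counted as cancelled when both steps were called, opposite and at least 2-fold and the 95% interval of the net change lay within 1.5-fold. CPM values were computed with the scaled library sizes. Library totals of 18779689 to 21592916 in the 6 libraries of the net comparison mean that 1 count is about 0.05 CPM. No 2 libraries of a compared group agreed within sampling noise (chi-square per degree of freedom at least 2.22).

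Gene coordinates are from GENCODE M21 (GRCm38), promoter sequences from RefSeq (GRCm38.p6). Alternatives were other filters, DESeq2 1.42.0 and its size factors, a replicate block, only the compared groups, other limits, and each library of the groups without PDGF-BB left out in turn. Named were Itgav, a panel, the 12 largest net changes per direction, the 10 cancelled and 5 reinforced genes per direction with the largest smaller step, the 5 interaction genes of each sign with the smallest p, and up to 5 members of each list with the smallest p. Names outside this rule, such as the remaining cancelled genes and further list members, were chosen after their values were seen. The genes, lists and tests were chosen with earlier results of these data known. Some members of the lists are not reported here.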

Additional observations from a re-analysis of the deposited data

Results flagged for a closer look

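The siRNA effect under TGF-β differed from that without stimulus, by a test of the interaction in edgeR's fit, in 3676 genes. The interaction is given on the log2 scale as the effect with TGF-β minus the effect without. For Spp1 it was 2.44 ± 0.099, with an siRNA effect of 2.72 ± 0.067 under TGF-β and 0.29 ± 0.072 without. For Gadd45a, a stress-induced growth arrest gene, it was 2.39 ± 0.078, with 2.70 ± 0.051 under TGF-β and 0.32 ± 0.059 without. Lhfpl2 had an interaction of 2.02 ± 0.087 (2.95 ± 0.06 under TGF-β and 0.92 ± 0.064 without), and Nes one of 1.98 ± 0.062 (1.10 ± 0.044 under TGF-β and -0.88 ± 0.043 without). Pmaip1, a pro-apoptotic BCL2 family member, had an interaction of 1.90 ± 0.078 from -0.36 ± 0.053 under TGF-β and -2.26 ± 0.058 without.

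On the negative side, Inhbb had an interaction of -2.45 ± 0.099, with -2.54 ± 0.086 under TGF-β and -0.09 ± 0.049 without. Angpt2, a ligand of the TIE2 receptor, had one of -2.26 ± 0.089 (-0.90 ± 0.076 under TGF-β, 1.36 ± 0.046 without). Gpm6a had one of -1.78 ± 0.077, from -2.78 ± 0.065 under TGF-β and -1.0 ± 0.041 without, Pmp22, a myelin and epithelial membrane protein, one of -1.60 ± 0.056, from -1.97 ± 0.04 under TGF-β and -0.38 ± 0.039 without, and Tmt1a one of -1.28 ± 0.058, from -0.65 ± 0.045 under TGF-β and 0.63 ± 0.037 without. In net terms Spp1 reached 1519 ± 83.7 CPM in TGFβ+Si, against 76 ± 3.53 CPM in Control+NC, and Gpm6a fell to 6.7 ± 0.683 CPM in TGFβ+Si, against 235 ± 0.769 CPM in Control+NC (SD, n = 3 each).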

How the results depend on the processing

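The net comparison called 9522 to 9728 genes when 1 library was left out, against 10199 with all, and the interaction 3042 to 3653. DESeq2 called 9843 and 3546, and a fit of the 2 net groups alone called 10254 in the net comparison. Leaving out 1 library at a time gave 28 to 43 cancelled genes, 15 to 21 of them raised and 13 to 26 lowered by TGF-β. Of those, 13 to 18 raised ones were lower and 11 to 24 lowered ones higher with the siRNA under PDGF-BB. Without Control+NC replicate 1 there were 43, of which 30 were among the 35. The limits moved the count more: a net band of 25% gave 11 (6 raised, 5 lowered), a band of 2-fold 88 (30 raised, 58 lowered) and steps of at least 1.5-fold 150 (65 raised, 85 lowered). The path through Control+Si gave 98 genes (40 that the siRNA lowered and 58 that it raised), 20 of them among the 35. No low-count filter gave 45, a filter at 1 CPM 37 and DESeq2's size factors 40, with 34, 32 and all 35 of the 35 among them. Of 2052 values of named genes under the alternatives, 2049 kept their direction and their side of the threshold. The exceptions were Arxes2 and Sp100, given above, and no direction was reversed. Deviations of same-numbered TGFβ+Si and Control+NC libraries correlated at 0.00375, 0.0273 and -0.0292. For 2 of the TGFβ+Si libraries the same-numbered Control+NC library was the best correlated of its group. These values cannot decide whether replicate numbers pair the samples. With the replicate number as a block, 10299 genes were called in the net comparison and 39 were cancelled, all 35 among them. Depth limits statements on genes with only a few counts in a group.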

Other observations

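Other gene groups moved in both directions between TGFβ+Si and Control+NC cells, where 31.6% of all genes were higher and 32.8% lower. Of 27 ion channel and receptor genes, 14 were higher and 8 lower. Rgs4, a brake on G protein signalling, reached 67.2, 62.9 and 63.2 CPM in TGFβ+Si, against 1.24, 2.13 and 2.42 CPM in Control+NC (5.07 ± 0.15), with a TGF-β step of 6.04 ± 0.15 and an siRNA step of -0.97 ± 0.075. Kcnma1, the pore of the large-conductance potassium channel, had 0.8, 0.442 and 0.481 CPM in TGFβ+Si and 0.0458, 0.0507 and 0 CPM in Control+NC libraries, too few reads at baseline for a fold change. The angiotensin receptor gene Agtr1a changed by -4.15 ± 0.77. In the Notch and WNT list, 10 of 26 were higher and 8 lower, close to the shares over all genes. Heyl, a Notch target gene, rose by 5.46 ± 0.44 and Nrarp, another target and a feedback inhibitor of Notch, fell to 0.286, 0.276 and 0 CPM in TGFβ+Si, against 4.35, 2.99 and 2.86 CPM in Control+NC (-4.16 ± 0.59).

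Xenobiotic and oxidoreductase genes were lower in 13 of 23 cases and higher in 7 (median -0.83). Fmo2, a flavin monooxygenase, had 3.03, 3.37 and 3.58 CPM in TGFβ+Si, 0.928, 0.753 and 0.926 CPM in TGFβ+NC and 34, 39.7 and 41.3 CPM in Control+NC libraries, so the siRNA step of 1.94 ± 0.2 offset a part of the TGF-β step of -5.46 ± 0.18. Hmox1, the inducible heme oxygenase, was higher (1.65 ± 0.064). Of the ATF4 and serine pathway list, 15 of 26 were higher and 8 lower, led by the folate enzyme gene Aldh1l2 (4.15 ± 0.12). Hypoxia and glycolysis genes were lower in 3 of 26 cases and higher in 12, and the lactate transporter gene Slc16a3 was one of the higher ones (2.78 ± 0.21). The p53 targets were lower in 13 of 20 cases and higher in 4. Among ERK targets 13 of 30 were lower and 10 higher, 5 and 7 of them by at least 2-fold. Ccnd1, which encodes cyclin D1, changed by -2.85 ± 0.035. Egr2 rose by 5.32 ± 0.33 from a mean of 0.309 CPM in Control+NC, and Junb by 1.74 ± 0.069. YAP and TEAD targets were higher in 8 of 21 cases and lower in 9, with Nt5e, an ectonucleotidase, the highest (2.99 ± 0.17). For the ERK list and the YAP and TEAD list, the share in each direction was not far from that over all genes.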
